A study of Mus musculus with 9 samples.

Results

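The 44 genes described here encode the contractile apparatus of skeletal muscle and the proteins that couple its electrical excitation to contraction. They were taken by symbol from a fixed list, which was chosen with earlier results of these data known. All 44 were found among the 54146 genes of the expression table. The cells sequenced were sorted as eosinophils and not as muscle. Eosinophils are a granulocyte known from allergy and parasite infection. The cells were isolated by flow cytometry from the leukocyte infiltrate of quadriceps muscle of adult mice. The gate took live cells with CD45 and Siglec-F and without CD11c, Gr1 or MHC class II. How much of the RNA came from other cells was not tested. The sample titles give 3 groups of 3 libraries. IL5Tg mice carry an interleukin-5 transgene, mdx mice lack dystrophin and model Duchenne muscular dystrophy, and mdx_IL5Tg mice combine both. Each of the 9 samples, IL5Tg among them, carries the strain label mdx, which conflicts with the titles. The titles were followed. The promoter of the transgene, the age in weeks and the sex of the mice were not given in the sources used here. The design text calls the replicates biological, and whether each library came from 1 mouse was not stated.

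In a striated muscle fibre, myosin thick filaments pull on actin thin filaments when calcium binds troponin, and the Z disc and M band hold the filaments in register. An action potential reaches the voltage sensor Cacna1s in the membrane, which opens the calcium release channel Ryr1 of the sarcoplasmic reticulum, and the pump Atp2a1 returns the calcium. Fast and slow fibres use different myosins, troponins and calcium-binding proteins. Mature muscle fibres transcribe these genes at very high levels and leukocytes use other members of the same families, such as Actb, Myh9 and Ckb. In bulk libraries, fewer cells of a type and less RNA per cell cannot be told apart.

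Library totals ran from 26752780 to 58368283 counts. Libraries are named by their group and the S number of their column, which the labels do not tie to a numbered replicate: S7, S8 and S9 are IL5Tg, S1, S2 and S3 are mdx_IL5Tg, and S4, S5 and S6 are mdx. Levels are CPM, counts scaled to a common depth with TMM factors, and are given in that order of libraries unless another is stated. Eosinophil markers were present in every group, but their summed level was lower in mdx (2159 to 2961 CPM) than in IL5Tg (5769 to 16020 CPM), with mdx_IL5Tg between (5193 to 5655 CPM). Of 12 such markers 8 fell in mdx against IL5Tg, where 8.96% of all genes tested fell. The 8 became 3 without S4, 5 without S2 or S3 and 2 with only those groups fitted. The eosinophil peroxidase Epx was at 2020, 416 and 1029 CPM in IL5Tg, 151, 191 and 139 in mdx_IL5Tg and 16.1, 7.13 and 151 in mdx. Epx overlapped between mdx_IL5Tg and mdx, since mdx S6 stood at 151 CPM and the other mdx libraries at 16.1 CPM or less. Siglecf, which encodes the sorting marker, read 330, 336 and 394 CPM in IL5Tg, 529, 449 and 584 in mdx_IL5Tg and 164, 129 and 177 in mdx.

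The promoters of 4 members that the results turn on are shown, with matches to short motifs known from muscle promoters. The genes are Acta1, skeletal alpha-actin; Mylpf, the fast regulatory light chain; Myh4, the fast IIb myosin heavy chain; and Des, the intermediate filament desmin. Each window holds the 250 bases before the RefSeq start on build GRCm38.p6, written 5′ to 3′ on the strand of the gene: chr8:123894776-123895025 (minus strand) for Acta1, chr7:127211358-127211607 (plus strand) for Mylpf, chr11:67237562-67237811 (plus strand) for Myh4 and chr1:75360042-75360291 (plus strand) for Des. The Mylpf window lies within the longer span of that gene in GENCODE. Capitals mark matches to 4 motifs: the E box CANNTG, the CArG box and the MEF2 box, searched on both strands, and TATAAA, searched on the strand of the gene.
Acta1: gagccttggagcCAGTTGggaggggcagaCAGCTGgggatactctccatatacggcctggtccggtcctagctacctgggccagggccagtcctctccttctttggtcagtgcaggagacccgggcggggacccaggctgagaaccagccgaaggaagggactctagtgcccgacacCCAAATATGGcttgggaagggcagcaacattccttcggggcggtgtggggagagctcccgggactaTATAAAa
Mylpf: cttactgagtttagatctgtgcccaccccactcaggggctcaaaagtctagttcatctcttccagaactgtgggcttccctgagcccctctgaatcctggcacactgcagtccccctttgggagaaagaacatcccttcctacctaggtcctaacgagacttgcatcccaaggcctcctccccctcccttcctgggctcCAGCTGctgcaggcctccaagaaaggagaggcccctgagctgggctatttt
Myh4: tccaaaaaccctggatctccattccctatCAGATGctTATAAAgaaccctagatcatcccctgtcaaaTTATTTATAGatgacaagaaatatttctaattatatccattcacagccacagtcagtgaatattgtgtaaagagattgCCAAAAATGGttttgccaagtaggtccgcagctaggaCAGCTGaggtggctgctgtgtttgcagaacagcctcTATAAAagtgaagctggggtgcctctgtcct
Des: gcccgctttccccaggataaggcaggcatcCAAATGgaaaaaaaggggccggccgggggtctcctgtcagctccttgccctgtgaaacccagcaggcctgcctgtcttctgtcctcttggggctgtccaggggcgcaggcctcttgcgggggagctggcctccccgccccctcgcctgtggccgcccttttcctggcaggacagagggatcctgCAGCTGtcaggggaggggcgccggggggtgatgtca
The Acta1 window held 2 E boxes, 1 CArG box and 1 TATAAA, and the Myh4 window held 2 E boxes, 1 CArG box, 1 MEF2 box and 2 TATAAA. The Des window had 2 E boxes and the Mylpf window 1, with no match to the other motifs in either. Windows were found for 35 of the 44 members, some with more than 1 start, giving 43 windows. An E box was in 81.4% of them against 66.2% of all 32851 RefSeq promoter windows, a CArG box in 14% against 1.47%, a MEF2 box in 9.3% against 2.92% and TATAAA in 9.3% against 7.59%. The members with a CArG box were Acta1, Ldb3, Myh4, Myl3 and Myom1, and those with a MEF2 box were Casq2, Myh1, Myh4 and Pvalb. These matches describe the letters in the windows and are no evidence of binding.

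Muscle transcripts were scarce in all 9 libraries and most abundant in mdx. Summed over the 44 members, the level was 59.9 ± 6.81 CPM in IL5Tg, 76.0 ± 16.7 CPM in mdx_IL5Tg and 174 ± 33.7 CPM in mdx (mean ± SD, n = 3). The members together took 0.00527% of the counts of mdx_IL5Tg S3, the library with the smallest share (95% Wilson interval 0.00506 to 0.00549%). In mdx S4, the library with the largest, they took 0.0243% (0.0238 to 0.0248%). These intervals cover counting error only. The mdx libraries, at 148 to 212 CPM, all lay above the other 6, which ran from 52.9 to 93.9 CPM and overlapped between IL5Tg and mdx_IL5Tg. By mean level 43 of the 44 members were highest in mdx, and 37 had the order IL5Tg, mdx_IL5Tg, mdx from lowest to highest. At least 1 count in every library was found for 31 members.

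**Figure D1:**
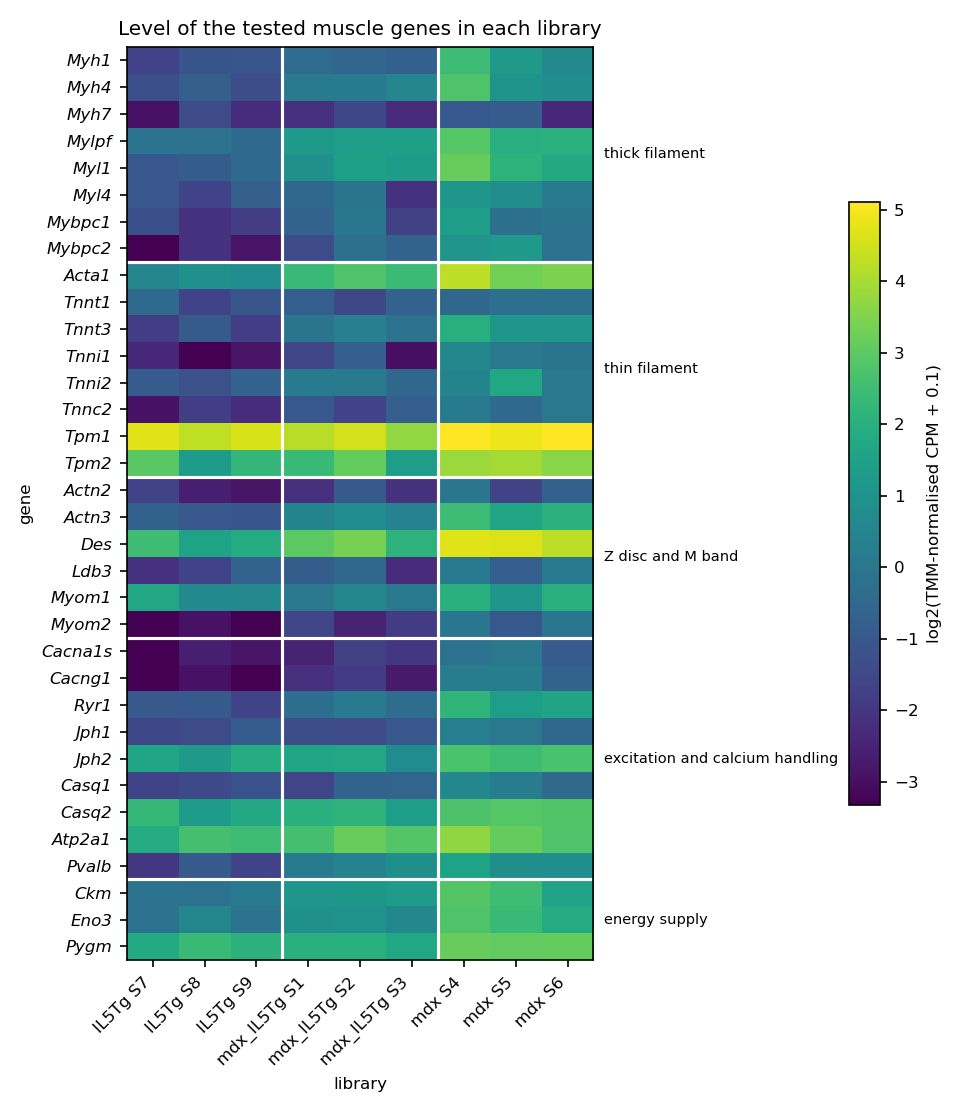
Level of the 34 tested muscle genes (rows, by role) in each of the 9 libraries (columns, by group), as log2 of TMM-normalised CPM plus a pseudocount of 0.1. The mdx columns are the brightest for most genes, and Tpm1 is bright in all 9 columns.

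Of the 44 members 34 had enough counts to be tested, and a gene is called here when its edgeR adjusted p, over all 15886 genes tested, is under 0.05. Differences are given as a log2 fold change ± SE, with 3 libraries a group. In mdx_IL5Tg against IL5Tg 8 of the 34 rose and none fell, where 4.35% of all genes tested rose, 2.87% fell and 7.22% were called in either direction. In mdx against mdx_IL5Tg 21 rose and none fell, where 11.5% of all genes rose, 10.1% fell and 21.6% were called either way. In mdx against IL5Tg 27 rose and none fell, where 11.8% of all genes rose, 8.96% fell and 20.8% were called either way. At an unadjusted p under 0.05 the only member lower was Myom1, in mdx_IL5Tg against IL5Tg, and no member fell in any of the 16 alternative fits with edgeR, DESeq2 or limma voom. Members with every library of the first group above every library of the second numbered 18, 27 and 30 of the 34, in the same order of comparisons, where 19.4%, 23.2% and 22.2% of all genes did so. The median log2 fold change of the tested members was 1.00, 1.33 and 2.55, beside −0.05, 0.13 and 0.01 over all genes. The 3 comparisons share their groups pairwise and are not independent of each other. The count filter took all 9 libraries together, so members near 0 elsewhere passed it through mdx, such as Cacng1, Myom2 and Cacna1s. Such members could hardly fall in mdx. With filter and fit on only the groups compared, 26, 34 and 32 members were tested, and 8, 14 and 26 rose. The list was chosen with earlier results of these data known, so the shares over all genes are no test of it.

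**Figure D2:**
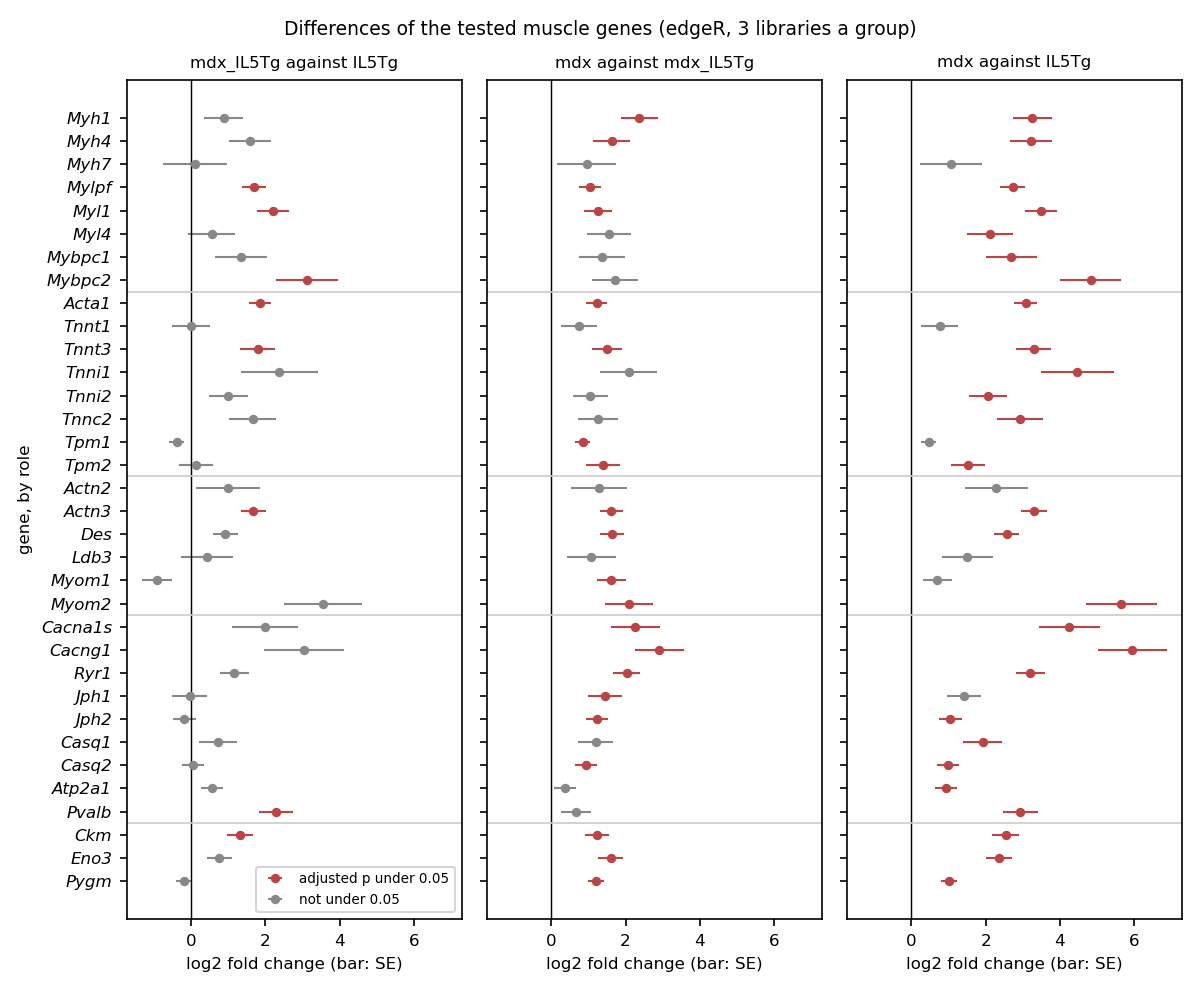
Log2 fold change of the 34 tested muscle genes (points, bars are the SE) in the 3 comparisons, with 3 libraries a group. Red points have an edgeR adjusted p under 0.05: 8 for mdx_IL5Tg against IL5Tg, 21 for mdx against mdx_IL5Tg and 27 for mdx against IL5Tg, all on the higher side.

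The calls fell into few patterns. Mylpf, Myl1, Acta1, Tnnt3, Actn3 and Ckm were called in all 3 comparisons, and Mybpc2 and Pvalb in both comparisons against IL5Tg. Another 12 members were called in both comparisons of mdx: Myh1, Myh4, Tpm2, Des, Myom2, Cacna1s, Cacng1, Ryr1, Jph2, Casq2, Eno3 and Pygm. Tpm1, Myom1 and Jph1 were called in mdx against mdx_IL5Tg alone, and Myl4, Mybpc1, Tnni1, Tnni2, Tnnc2, Casq1 and Atp2a1 in mdx against IL5Tg alone. Myh7, Tnnt1, Actn2 and Ldb3 had no call. The number of members called in mdx_IL5Tg against IL5Tg dropped from 8 to 2 without S1, S7 or S9, to 3 without S2 and to 5 without S8. In mdx against mdx_IL5Tg it dropped from 21 to 6 without S1 or S4, to 8 without S3, to 12 without S6, to 13 without S9 and to 14 without S2, and in mdx against IL5Tg it was 19 to 26 whichever library was left out. Calls were also gained in some fits. In mdx_IL5Tg against IL5Tg these were Myh4, Des, Tnni1 (adjusted p = 0.047, without S3) and Myom2 (0.048 with DESeq2, 0.041 without S5). In mdx against mdx_IL5Tg they were Myl4, Mybpc2 and Tnni1, each in 3 or 4 fits (adjusted p of 0.023 to 0.047), and Tnnc2 and Casq1 with scaling by totals (0.046 and 0.04). In mdx against IL5Tg the gained call was Jph1. A call lost with 1 library left out is not by that alone shown to be a smaller effect. Some estimates did shrink where the call was lost, such as Myh4 and Myl1 in mdx against mdx_IL5Tg without S4. Others grew, such as Mybpc2 in mdx_IL5Tg against IL5Tg without S1.

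Among the 11 members of the thick filament, the fast light chains Mylpf and Myl1 were called in all 3 comparisons. Mylpf (ENSMUSG00000030672.12, chr7:127208890-127214298, plus strand), the fast regulatory light chain, stood at 0.832, 0.811 and 0.634 CPM in IL5Tg, 2.25, 2.52 and 2.61 in mdx_IL5Tg and 7.31, 3.75 and 4.08 in mdx. No library of a group overlapped those of another. Mylpf rose in mdx_IL5Tg against IL5Tg (log2 1.69 ± 0.33, adjusted p = 0.021), and rose again in mdx against mdx_IL5Tg (log2 1.04 ± 0.30, adjusted p = 0.033). Myl1 (ENSMUSG00000061816.15, chr1:66924295-66945404, minus strand), the fast essential light chain, was measured at 0.384, 0.454 and 0.634 CPM in IL5Tg, 1.76, 2.64 and 2.43 in mdx_IL5Tg and 8.81, 4.22 and 3.40 in mdx. It rose in mdx_IL5Tg against IL5Tg (log2 2.21 ± 0.43, adjusted p = 0.02) and in mdx against mdx_IL5Tg (log2 1.27 ± 0.38, adjusted p = 0.036), again with no overlap between groups. Without S4 the value of Myl1 in mdx against mdx_IL5Tg was log2 0.67 (adjusted p = 0.23). In mdx against IL5Tg both passed the test, with folds of 6.62 for Mylpf and 11.2 for Myl1.

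Of the fast myosin heavy chains Myh1, Myh2 and Myh4, the motor proteins of the filament, Myh1 and Myh4 could be tested and both rose in mdx against each other group. Myh4 (ENSMUSG00000057003.12, chr11:67238029-67260446, plus strand), the heavy chain of IIb fibres, read 0.320, 0.487 and 0.298 CPM in IL5Tg, 1.01, 1.03 and 1.33 in mdx_IL5Tg and 6.70, 1.98 and 1.66 in mdx. No group overlapped another, and mdx S4 was far above the other mdx libraries. The difference of mdx from mdx_IL5Tg passed the test (log2 1.62 ± 0.51, adjusted p = 0.044), while that of mdx_IL5Tg from IL5Tg did not (log2 1.59 ± 0.56, adjusted p = 0.1). That last difference was called with DESeq2 (adjusted p = 0.044), with no count filter (0.028), with only those groups fitted (0.04) and without S4 (0.044). Without S4, Myh4 in mdx against mdx_IL5Tg was at log2 0.62 (adjusted p = 0.33), and in mdx against IL5Tg it was at 2.26 in place of 3.22. Myh1 (ENSMUSG00000056328.14, chr11:67200052-67224575, plus strand), the heavy chain of IIx fibres, was at 0.224, 0.357 and 0.373 CPM in IL5Tg, 0.671, 0.579 and 0.496 in mdx_IL5Tg and 5.40, 2.21 and 1.5 in mdx. It rose in mdx against mdx_IL5Tg (log2 2.38 ± 0.49, adjusted p = 0.0076), and kept the call at log2 1.59 without S4. In mdx against IL5Tg it was at log2 3.25, and at 2.51 without S4. The genes Myh1, Myh2 and Myh4 are near-identical neighbours, so the split of reads among them by the authors' estimation is uncertain. Of the reads on Myh1, Myh2, Myh4 and Myh7 together, Myh4 took 33.3 to 47.6% in the IL5Tg libraries, 48.2 to 64.6% in mdx_IL5Tg and 41.3 to 51.5% in mdx. The IL5Tg shares rest on only 21 to 36 such reads a library, and in S9 the 95% Wilson interval of the Myh4 share was 18 to 53.3%. The slow heavy chain Myh7 had 36 counts in all of mdx, 20 in mdx_IL5Tg and 13 in IL5Tg and was called in no comparison. Myh2, of IIa fibres, had 1 to 24 counts a library and was not tested.

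Myosin-binding protein C, which tethers the thick filament, differed in both forms. Its fast form Mybpc2 gave 0, 0.130 and 0.0373 CPM in IL5Tg, 0.277, 0.755 and 0.522 in mdx_IL5Tg and 2.01, 2.28 and 0.796 in mdx. Every mdx_IL5Tg and mdx library was above every IL5Tg library, in which 5 counts were found in all. Mybpc2 rose in mdx_IL5Tg against IL5Tg (log2 3.12 ± 0.84, adjusted p = 0.049) and in mdx against IL5Tg (log2 4.83 ± 0.82, adjusted p = 0.0027), values that were 4.70 and 6.32 without S8. The second was 4.20 without S7. The slow form Mybpc1 gave 0.320, 0.130 and 0.186 CPM in IL5Tg, 0.533, 0.881 and 0.209 in mdx_IL5Tg and 2.53, 0.770 and 0.844 in mdx, with a call in mdx against IL5Tg alone (log2 2.69 ± 0.69, adjusted p = 0.021) that was at log2 1.88 (adjusted p = 0.092) without S4. The atrial and embryonic light chain Myl4 was found at 0.384, 0.227 and 0.485 CPM in IL5Tg, 0.612, 0.856 and 0.131 in mdx_IL5Tg and 2.12, 1.64 and 0.989 in mdx, and rose in mdx against IL5Tg (log2 2.11 ± 0.62, adjusted p = 0.035) although mdx_IL5Tg S3 lay below all IL5Tg libraries. Myl2 and Myl3, the slow and ventricular light chains, had at most 1 count in any library. The call in mdx_IL5Tg against IL5Tg was lost (range of adjusted p over those fits in brackets) for Mylpf without S1, S7 or S9 (0.052 to 0.066), for Myl1 without S7 or with limma voom (0.053 to 0.067) and for Mybpc2 without any 1 library but S3 or S5 or with RLE scaling, scaling by totals or limma voom (0.05003 to 0.12). For mdx against mdx_IL5Tg it was lost by Myh4 without any 1 library but S5 or S6 or with limma voom or only those groups fitted (0.058 to 0.33), by Mylpf without any 1 library but S5 or with only those groups fitted (0.0504 to 0.22) and by Myl1 without any 1 library but S5 or S6 or with only those groups fitted (0.053 to 0.23). That in mdx against IL5Tg was lost for Myl4 without any 1 library but S2, S3 or S6 (0.055 to 0.12) and for Mybpc1 without S4, S8 or S9 (0.073 to 0.092).

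The 9 members of the thin filament held the most abundant transcripts of the list. Acta1 (ENSMUSG00000031972.5, chr8:123891769-123894751, minus strand), skeletal alpha-actin, stood at 1.31, 1.78 and 1.60 CPM in IL5Tg, 5.0, 6.72 and 5.30 in mdx_IL5Tg and 19.2, 9.71 and 10.8 in mdx. The groups did not overlap in any library. Acta1 rose in mdx_IL5Tg against IL5Tg (log2 1.85 ± 0.30, adjusted p = 0.0097), in mdx against mdx_IL5Tg (log2 1.23 ± 0.28, adjusted p = 0.012) and in mdx against IL5Tg (log2 3.08 ± 0.31, adjusted p = 0.00012). Its call in mdx_IL5Tg against IL5Tg held in all 16 alternative fits. Per kilobase of exon it was the highest member in mdx, at 8.62 CPM per kb, while in IL5Tg, at 1.02 CPM per kb, it was below Tpm1, Tpm2 and 4 other members.

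The troponins, the calcium switch of the thin filament, changed in their fast forms and in the slow inhibitor. Tnnt3 (ENSMUSG00000061723.18, chr7:142498836-142516009, plus strand), fast troponin T, was at 0.192, 0.422 and 0.186 CPM in IL5Tg, 0.849, 1.18 and 0.783 in mdx_IL5Tg and 3.87, 2.11 and 1.98 in mdx. It was called in all 3 comparisons, from log2 1.79 ± 0.47, adjusted p = 0.045 in mdx_IL5Tg against IL5Tg to log2 3.29 ± 0.47, adjusted p = 0.001 in mdx against IL5Tg. Tnni2, fast troponin I, gave 0.448, 0.325 and 0.522 CPM in IL5Tg, 0.988, 0.982 and 0.627 in mdx_IL5Tg and 1.3, 3.21 and 0.940 in mdx. Its rise in mdx against IL5Tg (log2 2.06 ± 0.52, adjusted p = 0.018) leaned on mdx S5, and was at log2 1.38 without it. Tnnc2, fast troponin C, read 0.0320, 0.195 and 0.112 CPM in IL5Tg, 0.395, 0.227 and 0.470 in mdx_IL5Tg and 1.03, 0.636 and 0.940 in mdx and rose in the same comparison (log2 2.92 ± 0.62, adjusted p = 0.0088), at log2 3.53 without S8. Tnni1, slow troponin I, was at 0.0960, 0 and 0.0373 CPM in IL5Tg, 0.237, 0.478 and 0.0261 in mdx_IL5Tg and 1.40, 0.937 and 0.844 in mdx, with 4 counts in all of IL5Tg and 1 count in mdx_IL5Tg S3. It rose in mdx against IL5Tg (log2 4.47 ± 0.98, adjusted p = 0.01), between log2 3.86 without S8 and 5.63 without S7. Slow troponin T, Tnnt1, was at 0.413 ± 0.209 CPM in IL5Tg, against 0.416 ± 0.144 in mdx_IL5Tg and 0.705 ± 0.0866 in mdx, with no call. Tnnc1, slow troponin C, was not tested: it had 35 counts in mdx, 4 in mdx_IL5Tg and 3 in IL5Tg, a ratio of rates of 8.71 for mdx over IL5Tg (95% counting interval 2.75 to 44.3).

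Neither tropomyosin, the proteins that cover the binding sites on actin, was called in mdx_IL5Tg against IL5Tg. Tpm1 (ENSMUSG00000032366.15, chr9:67022590-67049406, minus strand), which many cell types also transcribe, was found at 26.6, 19.7 and 24.3 CPM in IL5Tg, 18.1, 22.9 and 13.2 in mdx_IL5Tg and 34.2, 29.6 and 33.9 in mdx. IL5Tg and mdx_IL5Tg overlapped, and every mdx library was above both. Tpm1 rose in mdx against mdx_IL5Tg (log2 0.85 ± 0.20, adjusted p = 0.015) but did not pass in mdx against IL5Tg (log2 0.47 ± 0.20, adjusted p = 0.12). It made up 37.2 to 40.2% of all reads on the 44 members in IL5Tg, 21.8 to 24.7% in mdx_IL5Tg and 16.1 to 22.9% in mdx. Tpm2 (ENSMUSG00000028464.16, chr4:43514711-43523765, minus strand), beta-tropomyosin, stood at 7.55, 2.34 and 4.70 CPM in IL5Tg, 5.0, 8.54 and 2.48 in mdx_IL5Tg and 14.2, 15.7 and 12.2 in mdx, spread wide in both IL5Tg and mdx_IL5Tg, with mdx above all. It rose in mdx against mdx_IL5Tg (log2 1.39 ± 0.45, adjusted p = 0.04999) and against IL5Tg (log2 1.52 ± 0.46, adjusted p = 0.038). The call in mdx_IL5Tg against IL5Tg was lost (range of adjusted p over those fits in brackets) for Tnnt3 without S1, S2, S6, S7 or S9 or with scaling by totals or limma voom (0.053 to 0.14). For mdx against mdx_IL5Tg it was lost by Acta1 without S1 or S4 (0.072 to 0.075), by Tnnt3 without S1, S3 or S4 (0.086 to 0.15), by Tpm1 without S1, S3, S4 or S6 (0.064 to 0.082) and by Tpm2 without any 1 library but S2 or S8 or with no count filter or only those groups fitted (0.055 to 0.17). That in mdx against IL5Tg was lost for Tnni2 without S7, S8 or S9 or with limma voom (0.051 to 0.074) and for Tpm2 without any 1 library but S2, S3 or S7 or with no count filter (0.06 to 0.12).

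Of the 9 genes of the Z disc and M band, which anchor the filaments at their ends and centre, the fast alpha-actinin and desmin kept their calls in mdx in the most fits. Actn3 (ENSMUSG00000006457.3, chr19:4861216-4877909, minus strand), alpha-actinin of fast fibres, was measured at 0.512, 0.389 and 0.373 CPM in IL5Tg, 1.3, 1.59 and 1.23 in mdx_IL5Tg and 5.42, 3.01 and 4.15 in mdx. The 3 groups were apart in all libraries. Actn3 rose in mdx_IL5Tg against IL5Tg (log2 1.68 ± 0.34, adjusted p = 0.023), in mdx against mdx_IL5Tg (log2 1.61 ± 0.31, adjusted p = 0.0055) and in mdx against IL5Tg (log2 3.29 ± 0.35, adjusted p = 0.00017), and the last 2 calls held in all 16 alternative fits. Des (ENSMUSG00000026208.9, chr1:75360329-75368579, plus strand), the muscle intermediate filament, which smooth muscle also makes, was at 5.44, 2.86 and 3.5 CPM in IL5Tg, 7.80, 10.4 and 4.25 in mdx_IL5Tg and 25.8, 25.2 and 19.0 in mdx. The mdx libraries were high and close together, and mdx_IL5Tg S3 fell within the IL5Tg range. Des rose in mdx against mdx_IL5Tg (log2 1.64 ± 0.33, adjusted p = 0.0069) and against IL5Tg (log2 2.56 ± 0.34, adjusted p = 0.00071), calls that held in all 16 alternative fits, but not in mdx_IL5Tg against IL5Tg (log2 0.93 ± 0.33, adjusted p = 0.1). The latter was called with DESeq2 (adjusted p = 0.04), with no count filter (0.021) and without S3 (0.018).

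The M band proteins Myom1 and Myom2 link the thick filaments at their centre. Myom1 (ENSMUSG00000024049.14, chr17:71002633-71126856, plus strand) was at 3.14, 1.52 and 1.45 CPM in IL5Tg, 0.908, 1.36 and 0.966 in mdx_IL5Tg and 3.96, 2.08 and 3.88 in mdx. Every mdx_IL5Tg library was below every IL5Tg library, the only tested member of which this held, where 16.4% of all genes did so, and that difference did not pass the test (log2 −0.92 ± 0.40, adjusted p = 0.16). Myom1 rose in mdx against mdx_IL5Tg (log2 1.62 ± 0.40, adjusted p = 0.017). Myom2 gave 0, 0.0324 and 0 CPM in IL5Tg, 0.237, 0.0755 and 0.183 in mdx_IL5Tg and 0.879, 0.402 and 0.892 in mdx, with 1 count in all of IL5Tg, 22 in mdx_IL5Tg and 91 in mdx. Its ratio of rates was 67.9 for mdx over IL5Tg (95% counting interval 11.9 to 2711), and it rose in mdx against mdx_IL5Tg (log2 2.1 ± 0.65, adjusted p = 0.041) and against IL5Tg (edgeR adjusted p = 0.0027). Alpha-actinin 2 (Actn2) and the Z disc protein Ldb3 had no call, with means of 0.547 ± 0.335 and 0.821 ± 0.305 CPM in mdx against 0.109 ± 0.101 and 0.292 ± 0.205 CPM in IL5Tg. Tcap, the titin cap, Myot, myotilin, and Smpx were not tested. Tcap had 42 counts in mdx, 17 in mdx_IL5Tg and 10 in IL5Tg, and Myot 20, 18 and 5. Smpx had 11 counts in mdx, 4 in mdx_IL5Tg and 0 in IL5Tg. With 3 counts put in place of the 0 in IL5Tg, the ratio of mdx to IL5Tg would be 2.74. No interval was computed for it. The call in mdx_IL5Tg against IL5Tg was lost (range of adjusted p over those fits in brackets) for Actn3 without S1, S2, S8 or S9 or with limma voom (0.051 to 0.083). For mdx against mdx_IL5Tg it was lost by Myom1 without S1, S3, S4 or S6 (0.053 to 0.088) and by Myom2 without any 1 library but S5 or with no count filter (0.053 to 0.15).

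Among the 10 genes of excitation and calcium handling, those of the voltage sensor and release channel rose in mdx. Ryr1 (ENSMUSG00000030592.18, chr7:29003344-29125179, minus strand), the calcium release channel, stood at 0.416, 0.422 and 0.224 CPM in IL5Tg, 0.731, 0.982 and 0.705 in mdx_IL5Tg and 4.46, 2.54 and 2.92 in mdx. All libraries of the 3 groups were apart. Ryr1 rose in mdx against mdx_IL5Tg (log2 2.04 ± 0.36, adjusted p = 0.0039) and against IL5Tg (log2 3.21 ± 0.40, adjusted p = 0.00046) and kept both calls in all 16 alternative fits, while its difference between mdx_IL5Tg and IL5Tg did not pass (log2 1.17 ± 0.40, adjusted p = 0.091). Cacna1s, the pore and voltage sensor of the L-type channel, read 0, 0.0649 and 0.0373 CPM in IL5Tg, 0.0790, 0.201 and 0.157 in mdx_IL5Tg and 0.775, 0.904 and 0.434 in mdx. It had 3 counts in all of IL5Tg and 82 in mdx, a ratio of rates of 20.4 (95% counting interval 6.74 to 101), and rose in mdx against mdx_IL5Tg (log2 2.26 ± 0.66, adjusted p = 0.033) and against IL5Tg (edgeR adjusted p = 0.0054). Cacng1, the gamma subunit of the same channel, read 0, 0.0324 and 0 CPM in IL5Tg, 0.118, 0.176 and 0.0522 in mdx_IL5Tg and 1.09, 1.07 and 0.530 in mdx. Only 1 count fell in IL5Tg against 106 in mdx, a ratio of 79.1 (95% counting interval 13.9 to 3154), and Cacng1 rose in mdx against mdx_IL5Tg (log2 2.91 ± 0.65, adjusted p = 0.012) and against IL5Tg (edgeR adjusted p = 0.0017). For both channel genes mdx was above all other libraries.

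The junctophilins, which bridge the surface membrane and the reticulum, were no lower in IL5Tg than in mdx_IL5Tg by mean. Jph2 (ENSMUSG00000017817.11, chr2:163336242-163397993, minus strand) was at 2.98, 2.27 and 3.65 CPM in IL5Tg, 3.10, 3.15 and 1.59 in mdx_IL5Tg and 6.47, 5.52 and 6.39 in mdx, and Jph1 at 0.256, 0.292 and 0.447 CPM in IL5Tg, 0.296, 0.277 and 0.392 in mdx_IL5Tg and 1.11, 0.904 and 0.627 in mdx. IL5Tg and mdx_IL5Tg overlapped in both genes, and mdx lay above. Jph2 rose in mdx against mdx_IL5Tg (log2 1.23 ± 0.30, adjusted p = 0.017) and against IL5Tg (log2 1.05 ± 0.30, adjusted p = 0.032). Jph1 rose in mdx against mdx_IL5Tg (log2 1.45 ± 0.45, adjusted p = 0.041), and its difference from IL5Tg missed the threshold (log2 1.41 ± 0.46, adjusted p = 0.051) and passed with scaling by totals (0.036) and DESeq2 (0.048). Triadin, Trdn, which links Ryr1 to calsequestrin, was not tested, with 18 counts in mdx, 6 in mdx_IL5Tg and 1 in IL5Tg.

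Calsequestrins store calcium in the reticulum, the pump refills it and parvalbumin binds calcium in the cytosol of fast fibres. Casq2 (ENSMUSG00000027861.13, chr3:102086415-102146514, plus strand), the slow and cardiac form, was at 4.80, 2.40 and 3.32 CPM in IL5Tg, 3.95, 4.36 and 2.53 in mdx_IL5Tg and 6.55, 7.23 and 6.97 in mdx. Its mdx libraries were tightly grouped above the others, with rises against mdx_IL5Tg (log2 0.93 ± 0.29, adjusted p = 0.043) and IL5Tg (log2 0.98 ± 0.29, adjusted p = 0.039). Casq1, the fast form, gave 0.224, 0.260 and 0.336 CPM in IL5Tg, 0.237, 0.554 and 0.574 in mdx_IL5Tg and 1.38, 1.07 and 0.651 in mdx, and rose in mdx against IL5Tg alone (log2 1.92 ± 0.52, adjusted p = 0.025). Atp2a1 (ENSMUSG00000030730.12, chr7:126445858-126463108, minus strand), the calcium pump of fast fibres, stood at 3.55, 6.04 and 5.37 CPM in IL5Tg, 6.08, 8.81 and 7.08 in mdx_IL5Tg and 13.0, 8.57 and 6.75 in mdx. The mdx and mdx_IL5Tg libraries overlapped, and the rise in mdx against IL5Tg was near the threshold (log2 0.92 ± 0.29, adjusted p = 0.047). Pvalb (ENSMUSG00000005716.16, chr15:78191114-78206400, minus strand), parvalbumin, was measured at 0.160, 0.422 and 0.224 CPM in IL5Tg, 1.01, 1.23 and 1.72 in mdx_IL5Tg and 2.83, 1.74 and 1.66 in mdx. Here IL5Tg stood below both other groups, which overlapped: mdx_IL5Tg S3 was above 1 of the mdx libraries. Pvalb rose in mdx_IL5Tg against IL5Tg (log2 2.28 ± 0.46, adjusted p = 0.023) and in mdx against IL5Tg (log2 2.94 ± 0.46, adjusted p = 0.0017), and not in mdx against mdx_IL5Tg (log2 0.66 ± 0.40, adjusted p = 0.26). The call in mdx_IL5Tg against IL5Tg was lost (range of adjusted p over those fits in brackets) for Pvalb without S1, S2, S7 or S9 (0.0501 to 0.069). For mdx against mdx_IL5Tg it was lost by Cacna1s without any 1 library but S7 or S8 (0.055 to 0.15), by Cacng1 without S1 or S4 (0.057 to 0.06), by Jph1 without any 1 library or with no count filter or only those groups fitted (0.057 to 0.18), by Jph2 without S1, S3, S4 or S6 (0.054 to 0.067) and by Casq2 without any 1 library but S7 or with only those groups fitted (0.051 to 0.17). That in mdx against IL5Tg was lost for Jph2 without any 1 library but S2, S3 or S5 (0.053 to 0.13), for Casq1 without S4, S7, S8 or S9 (0.062 to 0.094), for Casq2 without any 1 library but S2, S3 or S7 (0.066 to 0.15) and for Atp2a1 without any 1 library but S6 or with RLE scaling, limma voom or only those groups fitted (0.054 to 0.19).

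The 5 genes of energy supply gave 3 that could be tested, and all 3 rose in mdx. Ckm (ENSMUSG00000030399.2, chr7:19404776-19422841, plus strand), muscle creatine kinase, was at 0.832, 0.811 and 1.01 CPM in IL5Tg, 2.05, 2.12 and 2.40 in mdx_IL5Tg and 7.10, 5.49 and 2.82 in mdx. The groups were apart, and Ckm was called in mdx_IL5Tg against IL5Tg at the edge of the threshold (log2 1.31 ± 0.35, adjusted p = 0.0496), in mdx against mdx_IL5Tg (log2 1.23 ± 0.33, adjusted p = 0.025) and in mdx against IL5Tg (log2 2.54 ± 0.36, adjusted p = 0.00097). Eno3 (ENSMUSG00000060600.15, chr11:70657202-70662513, plus strand), muscle enolase, was at 0.80, 1.36 and 0.820 CPM in IL5Tg, 1.76, 1.86 and 1.44 in mdx_IL5Tg and 6.83, 4.95 and 3.54 in mdx, with no overlap between groups. Eno3 rose in mdx against mdx_IL5Tg (log2 1.60 ± 0.33, adjusted p = 0.0077) and against IL5Tg (log2 2.36 ± 0.35, adjusted p = 0.0012). Pygm (ENSMUSG00000032648.14, chr19:6384399-6398459, plus strand), muscle glycogen phosphorylase, was found at 3.42, 5.06 and 4.14 CPM in IL5Tg, 3.99, 4.0 and 3.13 in mdx_IL5Tg and 8.79, 8.30 and 8.44 in mdx. The IL5Tg and mdx_IL5Tg libraries were interleaved and the 3 mdx libraries lay close together, at 8.51 ± 0.254 CPM. Pygm rose in mdx against mdx_IL5Tg (log2 1.20 ± 0.22, adjusted p = 0.0044) and against IL5Tg (log2 1.02 ± 0.22, adjusted p = 0.0092). The 4 calls of Eno3 and Pygm held in all 16 alternative fits. Myoglobin, Mb, had 41 counts in mdx, 31 of them in S4, with 25 in mdx_IL5Tg and 4 in IL5Tg, and the mitochondrial creatine kinase Ckmt2 had 15, 13 and 4. Neither was tested. The call in mdx_IL5Tg against IL5Tg was lost (range of adjusted p over those fits in brackets) for Ckm without any 1 library but S4, S5 or S6 or with scaling by totals, limma voom or the stricter filter (0.052 to 0.15). For mdx against mdx_IL5Tg it was lost by Ckm without S1, S2, S3 or S4 or with only those groups fitted (0.054 to 0.14).

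Fast and slow fibre genes differed in how many were called. Of 13 members used by fast fibres 12 were tested: 6 rose in mdx_IL5Tg against IL5Tg, 6 in mdx against mdx_IL5Tg and all 12 in mdx against IL5Tg, with median log2 fold changes of 1.67, 1.26 and 3.08. The 7 slow fibre and cardiac members were Myh7, Myl2, Myl3, Tnnt1, Tnni1, Tnnc1 and Casq2, of which 4 were tested. None of them rose in mdx_IL5Tg against IL5Tg, Casq2 rose in mdx against mdx_IL5Tg, and Casq2 and Tnni1 in mdx against IL5Tg. Their medians were 0.08, 0.94 and 1.02. The slow form Mybpc1 was in neither list, although its fast form Mybpc2 was among the fast members. Mybpc1 was at log2 1.33, 1.36 and 2.69 in the 3 comparisons, and only the last was called. Over all genes tested 4.35%, 11.5% and 11.8% rose in the 3 comparisons. Summed over the list, fast members were at 8.83 ± 1.70 CPM in IL5Tg, 19.8 ± 2.72 CPM in mdx_IL5Tg and 41.1 ± 16.3 CPM in mdx, and no library of a group overlapped another group. Slow members were at 4.14 ± 1.31, 4.48 ± 1.14 and 9.33 ± 0.564 CPM, and IL5Tg and mdx_IL5Tg overlapped. The difference between fast and slow members was not tested, and the slow members had fewer counts. Fast calls in mdx_IL5Tg against IL5Tg were 1 without S1, S7 or S9, 2 without S2 and 2 with limma voom, and in mdx against mdx_IL5Tg 2 without S1, S3 or S4 and 3 without S2, S7, S8 or S9.

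Single libraries stood out within their groups. In mdx, S4 was the highest of the 3 libraries for 33 of the 44 members, S5 for 8 and S6 for 3. Myh4 in S4 was 3.68 times the mean of S5 and S6, Mybpc1 3.14 times and Myh1 2.92 times, while Tpm1, Tpm2 and Pygm were at 1.08, 1.02 and 1.05 times. In mdx_IL5Tg, S2 was the highest library for 26 members and S3 the lowest for 21, while the lowest library of the other groups was most often S7 (24 members) and S6 (23 members). The ratio of S3 to the mean of S1 and S2 had a median of 1.05 over the 12 fast members tested and 0.63 over the 22 others. No fast member had a ratio under 0.5, and 8 of the others did: Tnni1 at 0.07, Myl4 at 0.18, Ldb3 at 0.20, Mybpc1 at 0.30, Cacng1 at 0.35, Tpm2 at 0.37, Des at 0.47 and Actn2 at 0.48. Most of these rest on few reads in S3: Tnni1 1, Cacng1 2, Ldb3 4, Myl4 5, Actn2 5 and Mybpc1 8. Tpm2 had 95 and Des 163. The same library had no count for the embryonic myosin heavy chain Myh3, with 49 in S1 and 37 in S2. In S1, S2 and S3 fibroblast genes summed to 1630, 3203 and 882 CPM, endothelial genes to 611, 751 and 335 CPM and smooth muscle genes to 240, 334 and 156 CPM. Macrophage genes were at 2694, 2549 and 2791 CPM, and red blood cell genes at 84.4, 124 and 318 CPM. Adgre1 made most of the macrophage sum, at 2439 CPM in S3 and a mean of 2147 CPM in S1 and S2. It was the only macrophage gene with a ratio of S3 to that mean above 1 (1.14). Csf1r was at 0.90, and C1qa, C1qb, Mrc1, Apoe and Trem2 were at 0.19, 0.18, 0.31, 0.30 and 0.35. The part of these differences in the calls was not tested beyond leaving out each library.

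**Figure D3:**
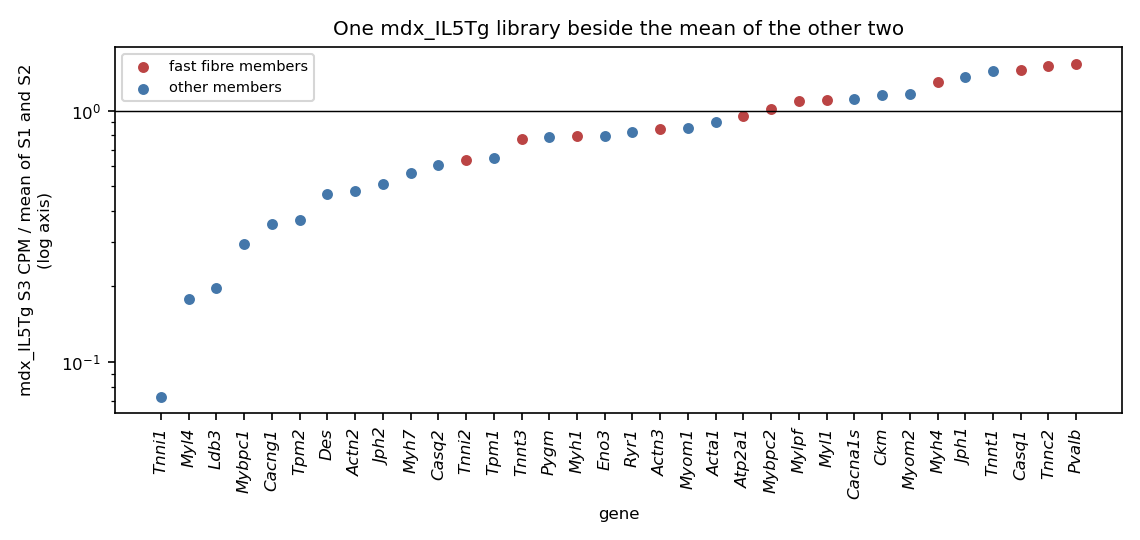
Ratio of the CPM in mdx_IL5Tg S3 to the mean of S1 and S2 (log axis) for the 34 tested muscle genes, ordered by that ratio. Fast fibre members (red) lie around 1, with none under 0.5, and 8 other members (blue) lie under 0.5, down to 0.07 for Tnni1 (1 count in S3).

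A list of 40 other skeletal muscle genes served for comparison, of which 22 were tested. In mdx_IL5Tg against IL5Tg 1 rose and none fell, in mdx against mdx_IL5Tg 10 rose and 1 fell, and in mdx against IL5Tg 9 rose and none fell. Over all genes tested 4.35%, 11.5% and 11.8% rose and 2.87%, 10.1% and 8.96% fell, in the same order. The 1 rise of 22 in the first comparison was close to the share over all genes. Rises in both comparisons of mdx were those of Srl, Klhl40, Klhl41, Fbxo32, Chrna1, Chrnd and Musk. Chrna1 and Chrnd are subunits of the muscle acetylcholine receptor, and Musk is the kinase that clusters it at the synapse. Chrna1 was at 0.384, 0.617 and 0.224 CPM in IL5Tg, 1.09, 1.16 and 0.418 in mdx_IL5Tg and 4.61, 2.48 and 3.76 in mdx, with mdx above all other libraries. Actc1, cardiac alpha-actin, which growing skeletal fibres also use, was at 0.320, 0.260 and 0.112 CPM in IL5Tg, 1.42, 2.27 and 0.679 in mdx_IL5Tg and 6.55, 1.84 and 2.73 in mdx, and rose in mdx_IL5Tg against IL5Tg (log2 2.62 ± 0.65, adjusted p = 0.039). That call was lost without S1, S2, S7, S8 or S9 and with scaling by totals or limma voom. Actc1 is a close paralog of Acta1, so the split of reads between them is uncertain. Cox7a1, a subunit of the respiratory chain of muscle, was the 1 gene that fell in mdx against mdx_IL5Tg (log2 −1.15 ± 0.30, adjusted p = 0.022), from 2.37, 1.43 and 2.09 CPM in IL5Tg, 3.52, 2.39 and 2.74 in mdx_IL5Tg and 1.28, 1.41 and 1.23 in mdx. In mdx against mdx_IL5Tg the number that rose was 0 without S4, 1 without S1, 3 without S3, 4 without S6, 5 without S2 or S9 and 6 without S8. The median log2 fold change over the tested genes was 0.26, 1.12 and 1.17 in the 3 comparisons.

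Counterparts of the members that most cells use were far more abundant in every library. Over 25 such genes the summed level was 25830 ± 2113 CPM in IL5Tg, 38530 ± 3124 CPM in mdx_IL5Tg and 27810 ± 3715 CPM in mdx. In mdx_IL5Tg against IL5Tg 7 of 23 tested rose, among them Actb, Myh9 and Ckb, and none fell. There were 10 falls and 2 rises in mdx against mdx_IL5Tg, and 2 falls and 3 rises in mdx against IL5Tg. Over all genes tested 4.35%, 11.5% and 11.8% rose and 2.87%, 10.1% and 8.96% fell in the 3 comparisons. With library totals alone as the scale, 7 fell and 6 rose in mdx against mdx_IL5Tg. With library totals alone 3 rose in mdx_IL5Tg against IL5Tg, and 1 to 10 rose there with 1 library left out (1 without S1, 2 without S2, 3 without S8 or S9, 4 without S6 or S7). Set beside their members per kilobase of exon, in pairs chosen after the values were seen, cytoplasmic Actb was 3981 times Acta1 in IL5Tg, 1644 times in mdx_IL5Tg and 517 times in mdx. Non-muscle Myh9 was 4643, 2551 and 704 times Myh4, and brain-type Ckb was 35.5, 25.3 and 6.81 times Ckm. Over the 10 pairs set up in this way the ratio was lowest in mdx for all 10. It was highest in IL5Tg for 6 and highest in mdx_IL5Tg for 4, namely Tpm3 over Tpm1 (21.5, 35.5 and 16.2 times), Eno1 over Eno3, Atp2a3 over Atp2a1 and Pygl over Pygm.

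Markers of other cell types of muscle tissue also differed between the groups, in orders that were not always that of the members, and their part in the members' differences was not tested. Of all genes tested 4.35%, 11.5% and 11.8% rose in the 3 comparisons. Of 12 satellite cell and myoblast genes all but Mymx and Myf6 were tested: 1 rose and 1 fell in mdx_IL5Tg against IL5Tg, 6 rose in mdx against mdx_IL5Tg, and 8 rose and 1 fell in mdx against IL5Tg. Myog, a regulator of muscle differentiation, was at 0.80, 0.584 and 0.149 CPM in IL5Tg, 1.60, 2.32 and 0.888 in mdx_IL5Tg and 7.98, 6.33 and 4.37 in mdx, and Myh3 at 0, 0 and 0.0373 CPM in IL5Tg, 0.968, 0.932 and 0 in mdx_IL5Tg and 6.16, 2.54 and 4.51 in mdx. The summed level of that list was 16.9 to 37.0 CPM in IL5Tg, 9.35 to 16.7 in mdx_IL5Tg and 23.5 to 42.3 in mdx, and Ncam1, which fell in both comparisons against IL5Tg, made most of it in IL5Tg, at 34.9, 16.4 and 15.9 CPM. Of 11 fibroblast genes none was called in mdx_IL5Tg against IL5Tg, while 9 rose and 1 fell in mdx against mdx_IL5Tg and 9 rose in mdx against IL5Tg. Their sum was 1061 to 2392 CPM in IL5Tg, 882 to 3203 in mdx_IL5Tg and 4620 to 11140 in mdx. Of 15 macrophage genes 7 rose in mdx_IL5Tg against IL5Tg, 12 rose and 1 fell in mdx against mdx_IL5Tg and 12 rose in mdx against IL5Tg, with sums of 1608 to 1978, 2549 to 2791 and 1788 to 2415 CPM. Smooth muscle and pericyte genes, of which Des is one, rose in 0, 5 and 3 of 9 cases, with sums of 247 to 386, 156 to 334 and 419 to 524 CPM, and endothelial genes in 0, 1 and 4 of 9, with sums of 529 to 731, 335 to 751 and 740 to 882 CPM. The macrophage sum was highest in mdx_IL5Tg, and the satellite, endothelial and smooth muscle sums had their lowest group means there. Single genes weighed heavily in 2 of these sums: Adgre1, which fell in mdx against mdx_IL5Tg, among macrophage genes, and Ncam1 among satellite genes. By gene, the median log2 fold change in mdx_IL5Tg against IL5Tg was 1.59 for macrophage and 1.54 for satellite genes. In mdx against mdx_IL5Tg it was 2.19 and 1.99. No red blood cell gene was called (2 rose in mdx against mdx_IL5Tg with no count filter), and neutrophil genes were called in both directions. Of 8 heart muscle genes, Nppa, Nppb and Myl7 had 0 counts in all 9 libraries, and the heart list summed to 0.746 to 1.54 CPM in IL5Tg, 0.914 to 2.92 CPM in mdx_IL5Tg and 3.75 to 7.83 CPM in mdx. The number of satellite and fibroblast genes that rose in mdx against mdx_IL5Tg was 0 and 1 without S1, 1 and 3 without S4 and 3 and 3 without S3, and the satellite count was also 3 without S6 or S9 and the fibroblast count 4 with no count filter. In mdx against IL5Tg the satellite count was 5 without S4 or S9 and 4 with the stricter filter, and the fibroblast count was 5 without S4 or S7. Macrophage rises in mdx_IL5Tg against IL5Tg were 1 without S1, 2 without S7, 3 without S2 or S8, 4 without S9 or with limma voom and 11 without S3 or with DESeq2. In mdx against mdx_IL5Tg they were 7 without S1 and 5 without S4. Smooth muscle rises there were 1 without S1 or S6 and 3 without S3, S4 or S9, and endothelial rises were 0 without S1, 3 without S5, 5 without S2 and 6 with scaling by totals. Endothelial rises in mdx against IL5Tg were 2 without S8 or S9.

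**Figure D4:**
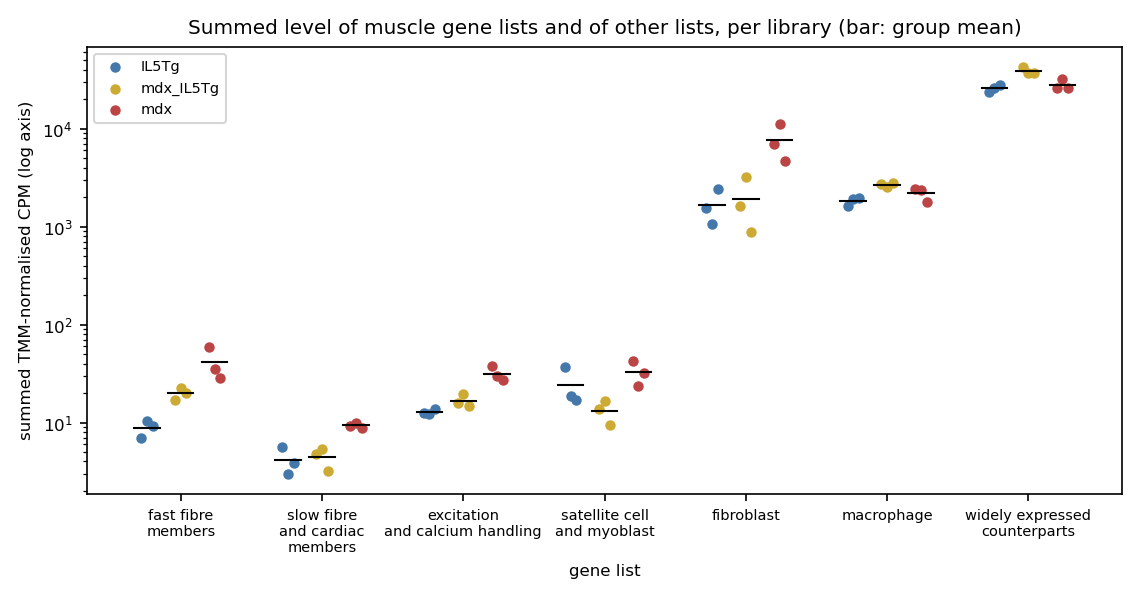
Summed TMM-normalised CPM (log axis) of muscle gene lists, of 3 cell type lists and of the widely expressed counterparts in each library (points by group, bar is the group mean of 3). Fast fibre members and the excitation and calcium handling genes each separate the 3 groups. Slow fibre and cardiac members and fibroblast genes separate mdx from the others, and the counterparts lie at 23780 CPM or more in every library.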

How the data were processed

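RNA-seq was done on cells sorted as eosinophils from quadriceps muscle, in 9 libraries and 3 groups of 3. The values the authors deposited are unnormalised expected counts from RSEM, 1 for each gene and library. Per the submitters' processing notes, cutadapt 2.10, STAR 2.5.3, RSEM 1.3.0 and limma were used on mouse build mm10. Which annotation was counted, and whether by strand, is not stated in the labels. RSEM splits reads shared by paralogs, so the actin and myosin genes are uncertain against each other.

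The 6.03% of values that were not whole were rounded. Genes were kept by filterByExpr (minimum count 10), leaving 15886, libraries were scaled by TMM, and all 9 entered 1 quasi-likelihood fit in edgeR 4.0.16 (R 4.3.3) with Benjamini-Hochberg adjustment over all genes and a threshold of 0.05. Columns could be tied to a group but not to a numbered replicate. The fit was tested on simulated data in which only genes of higher mean level were changed. It was thus not checked at the level of members such as Cacng1, Myom2 and Cacna1s. The 16 alternatives were RLE scaling, library totals only, DESeq2 1.42.0, limma 3.58.1 voom, no count filter, a minimum of 50 counts in 3 libraries, only the groups compared, and each library left out. Depth of 26752780 to 58368283 counts leaves many members with few reads. Each ratio of rates is given with its exact 95% binomial interval, except that of Smpx, which had 0 counts in IL5Tg.

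Gene positions and exon lengths came from GENCODE M21 (GRCm38), in which 54079 of 54146 identifiers were found, and promoters from RefSeq (GRCm38.p6). The members and gene lists were chosen with earlier results of these data known. By rule, values of every library were given for the 3 members of highest mean CPM in each role and for every member called in any comparison, and from other lists for the genes of smallest p or highest CPM. Srl, Klhl40, Cox7a1, Chrnd, Musk, Actb, Tpm3, Atp2a3, Myh9, Ckb and Epx, and the untested or undetected Myf6, Mymx, Nppa, Nppb and Myl7, fall outside this rule and were chosen after their values were seen.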

Additional observations from a re-analysis of the deposited data

How the results depend on the processing

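No call of a member was reversed in any of the 16 alternatives, though some values that were not called changed sign. In mdx_IL5Tg against IL5Tg, 8 members were called; this became 5 with library totals only, 3 with limma voom and 2 to 9 with 1 library left out, and the 1147 calls over all genes became 2464 with DESeq2, 1816 with only the groups compared and 110 (without S1) to 2641 (without S5) with 1 library left out. In mdx against mdx_IL5Tg, 21 members were called and 6 to 17 with 1 library left out, beside 3433 genes in all and 1521 (without S1) to 4057 (without S5). In mdx against IL5Tg, 27 members were called and 19 to 26 with 1 library left out, beside 3298 genes in all and 1961 (without S9) to 3837 (without S3). The other alternatives stayed within 1.5 times these counts. Both the scale and single libraries moved the balance of all calls. The share of calls that were higher was 60.2%, 53.3% and 56.8% in the 3 comparisons. It was 24.1%, 84.3% and 70.7% with library totals only, where the median log2 fold change of all genes was −0.27, 0.46 and 0.12. DESeq2 gave 49.0% in the first. With 1 library left out the share ran from 49.8% (without S3) to 98.2% (without S1) in the first comparison. In the second it ran from 28.2% (without S1) to 50.7% (without S2), and in the third from 45.8% (without S8) to 58.1% (without S5). With only the groups compared it was 39.8% in the second. Positive values were found for 29 of 34 members in mdx_IL5Tg against IL5Tg, and for 25 with library totals only. In mdx against mdx_IL5Tg they were found for all 34, and for 32 of 33 without S4. The cause of these changes was not tested, beyond the smaller number of libraries where 1 is left out. No paired analysis was possible because the columns of the table carry S numbers and not the replicate numbers of the titles. The stricter filter left 20 members to test. With 3 libraries a group and few reads for many members, a difference that missed the threshold is not shown to be absent.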
